A study of Mus musculus with 9 samples.

Results

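Metallothioneins and zinc transporters set how much free zinc a cell holds, and 5 of their genes were followed here in mouse brain after a local inflammatory stimulus. They were the metallothioneins *Mt1*, *Mt2* and *Mt3*, the zinc importer *Slc39a14* and the zinc exporter *Slc30a1*. The genes were chosen by symbol, and each was represented by the probe set that the array annotation gave to its symbol alone and that had the highest mean over the 9 arrays. Of these 5 genes, 4 had such a probe set, among 17097 genes represented in the same way, and *Mt2* was not analysed here. The 4 genes had 8 probe sets in all.

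The arrays measured brain RNA of adult male C57Bl/6J mice, 10 to 12 weeks old, that had received an injection into the striatum of 1 hemisphere. There were 3 groups of 3 arrays: brain collected 4 d after lipopolysaccharide (LPS, a bacterial cell wall component that activates innate immune cells), brain collected 1 d after LPS, and brain collected 4 d after phosphate-buffered saline (PBS). Every array held RNA pooled in equal amounts from 3 mice, so the errors below are between pools. The mice were perfused with saline before dissection, and a block of the injected hemisphere centred on the injection site was used, so that neurons, glia, vessels and infiltrating blood cells all contributed RNA. In such a mixture fewer cells of a type and less RNA per cell cannot be told apart. PBS-injected brain shares the surgery and the injection with the LPS groups. No array of PBS-injected brain at 1 d was analysed, and the same 3 PBS arrays stand behind both comparisons of LPS with PBS.

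Metallothioneins are small, cysteine-rich proteins that bind zinc and copper. *Mt1* and *Mt2*, which in brain are found mainly in astrocytes, are switched on by zinc through the transcription factor MTF1, by glucocorticoids and by interleukin 6 (IL-6) through STAT3, whereas *Mt3* is largely restricted to the nervous system and responds little to metals. *Slc39a14* encodes ZIP14, which carries zinc, iron and manganese into the cytosol and is induced by IL-6 in liver, and *Slc30a1* encodes ZnT1, which exports zinc across the plasma membrane and is itself a target of MTF1.

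The array profiles were alike. Pearson correlations over all probe sets were 0.992 to 0.994 within groups (9 pairs) and 0.981 to 0.990 between groups (27 pairs), and no array stood apart. Values are log2 intensities, for which a difference of 1 is a doubling, and background was set at 3.49, the highest mean among 23 nonspecific controls on the array. Neuronal and striatal marker genes were above background in every group, and none of the 7 measured neuronal or 7 measured striatal projection neuron markers passed the test in any comparison. To pass a comparison, a gene needed a fold change of 1.5 or more together with a Benjamini-Hochberg adjusted p under 0.05, from a linear model that limma fitted to all probe sets at once.

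At 1 d after LPS, *Mt1* and *Slc39a14* rose and neither *Slc30a1* nor *Mt3* passed the test. That is 2 of 4 genes higher and 0 lower, where 3.86% of all genes tested were higher and 0.532% lower. At 4 d after LPS, 0 of the 4 genes passed in either direction against PBS, where 4.21% of all genes were higher and 0.205% lower. Between the 2 times after LPS, *Mt1* and *Slc39a14* fell, and 0 genes rose, against 1.37% of all genes lower and 1.84% higher. In the moderated F-test over the 3 groups, 3 of the 4 genes differed (*Mt1*, *Slc39a14* and *Slc30a1*), as did 7.67% of all genes. The median log2 change of all genes was -0.03 at 1 d against PBS, -0.02 at 4 d against PBS and 0.0024 at 4 d against 1 d. With 4 genes these shares describe the genes listed and nothing wider.

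**Figure D1:**
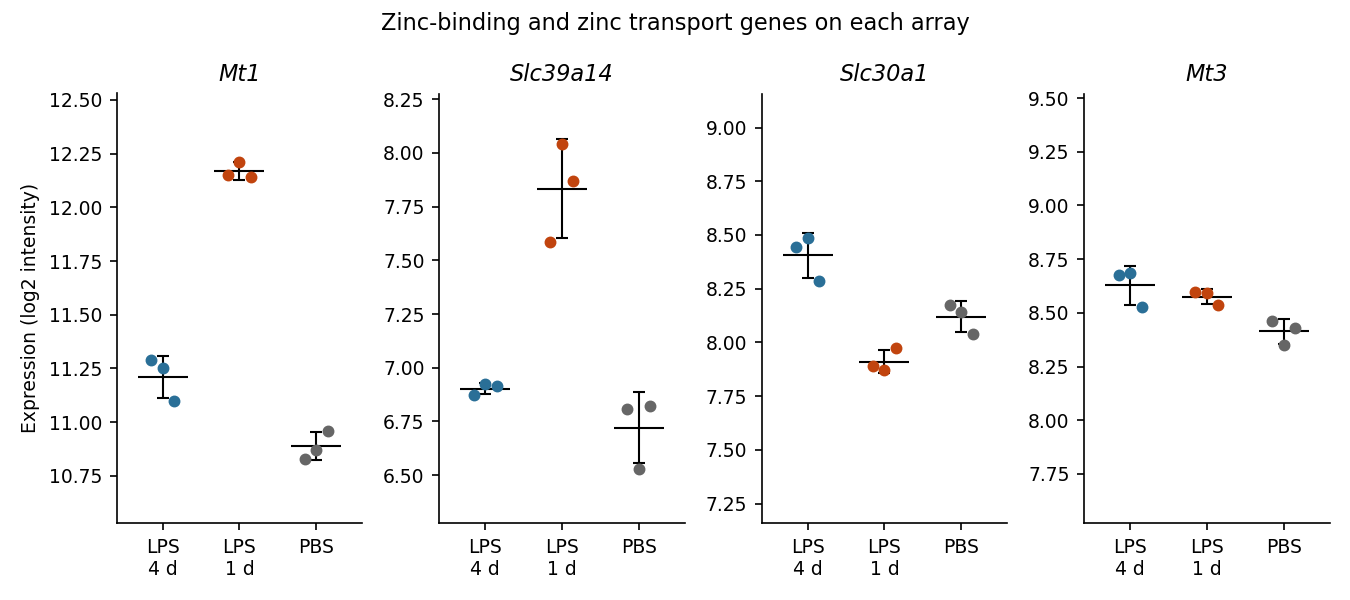
Expression of *Mt1*, *Slc39a14*, *Slc30a1* and *Mt3* (log2 intensity, vertical axes of equal span but different position) on the 3 arrays of each group, each array a pool of 3 mice. Points are arrays, and horizontal marks with bars are the mean and SD. *Mt1* and *Slc39a14* were highest on the 3 LPS 1 d arrays, *Slc30a1* was lowest there, and the *Mt3* values span the smallest range.

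*Mt1* encodes the inducible metallothionein I. Its probe set read 11.29, 11.25 and 11.10 on the 3 LPS 4 d arrays, 12.15, 12.21 and 12.14 on the LPS 1 d arrays and 10.83, 10.87 and 10.96 on the PBS arrays. The 3 groups did not overlap, with every LPS 1 d array highest, every PBS array lowest and the LPS 4 d arrays between them. On the linear scale the intensity was 2380 ± 162 at 4 d, 4605 ± 131 at 1 d and 1893 ± 86.7 after PBS (SD, n = 3 arrays each).

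At 1 d against PBS, *Mt1* rose 2.43-fold, a log2 change of 1.28 (standard error 0.081, 95% interval 1.10 to 1.47, limma adjusted p = 2.80e-05). This was rank 371 among 17097 genes ordered from the largest rise. At 4 d against PBS its log2 change was 0.33 (95% interval 0.15 to 0.51, limma adjusted p = 0.0639). This 1.26-fold change did not pass, being under the fold change required, although the arrays of the groups did not overlap. The adjusted p from limma was 0.00053 with an intensity trend, 0.0237 with a background filter and 0.0571 to 0.183 with single arrays left out. Between the 2 times *Mt1* fell by 0.95 on the log2 scale (95% interval -1.14 to -0.77, limma adjusted p = 0.000528), rank 202 from the largest fall.

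The representing *Mt1* probe set is of the annotation class whose probes can match more than 1 transcript, so signal from a related transcript could not be told apart from that of *Mt1*. At 1 d its values came within 0.50 log2 units of the highest value on an array, and whether the scale was compressed there was not tested. A second *Mt1* probe set lay near background, with means of 3.38 at 4 d, 4.07 at 1 d and 3.40 after PBS. Its changes of 0.66 at 1 d against PBS (limma adjusted p = 0.246) and -0.69 at 4 d against 1 d (limma adjusted p = 0.284) did not pass.

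*Slc39a14* had the same order of groups as *Mt1*. Its probe set read 6.87, 6.92 and 6.92 at 4 d, 7.59, 8.04 and 7.87 at 1 d and 6.81, 6.53 and 6.82 after PBS. All 3 LPS 1 d arrays were above the other 6, and the LPS 4 d arrays lay narrowly above the PBS arrays. The gene rose 2.16-fold at 1 d against PBS, a log2 change of 1.11 (standard error 0.13, 95% interval 0.83 to 1.40, limma adjusted p = 0.00101). At 4 d against PBS the change was 0.18 (95% interval -0.10 to 0.47, limma adjusted p = 0.523), and at 4 d against 1 d the gene fell by 0.93 on the log2 scale (95% interval -1.22 to -0.64, limma adjusted p = 0.00543).

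The other 2 *Slc39a14* probe sets were dim. The third, with means of 2.87 at 4 d, 3.81 at 1 d and 3.04 after PBS, was above background only at 1 d. It changed by 0.77 at 1 d against PBS (limma adjusted p = 0.0613) and fell by 0.93 at 4 d against 1 d (limma adjusted p = 0.0358). The second, with means of 3.85 at 4 d, 4.09 at 1 d and 3.57 after PBS, passed in 0 of the 3 comparisons.

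*Slc30a1*, the zinc exporter, had its lowest values at 1 d. Its probe set read 8.44, 8.49 and 8.29 at 4 d, 7.89, 7.87 and 7.97 at 1 d and 8.18, 8.14 and 8.04 after PBS. The groups did not overlap, with every LPS 1 d array below every PBS array and every LPS 4 d array above them. Each step was small. The log2 change was -0.21 at 1 d against PBS (95% interval -0.40 to -0.02, limma adjusted p = 0.266) and 0.29 at 4 d against PBS (95% interval 0.10 to 0.48, limma adjusted p = 0.116), and neither passed.

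Between the 2 times, *Slc30a1* was 1.41-fold higher at 4 d than at 1 d, a log2 change of 0.50 (standard error 0.084, 95% interval 0.31 to 0.68, limma adjusted p = 0.0161), which is under the fold change of 1.5 that a pass required. The adjusted p was above 0.05 when replicate 1 (0.0560) or 2 (0.0728) at 1 d, or replicate 1 (0.0617) or 2 (0.0512) at 4 d, was left out. The moderated F-test over the 3 groups gave an adjusted p of 0.0208 for *Slc30a1*, against 0.00147 for *Slc39a14* and 5.12e-05 for *Mt1* (limma). A second, dimmer *Slc30a1* probe set gave log2 changes of -0.09, 0.28 and 0.38 in the same 3 comparisons, and none passed.

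*Mt3* encodes the metallothionein of neurons and astrocytes also called growth inhibitory factor. Its probe set read 8.68, 8.69 and 8.53 at 4 d, 8.60, 8.59 and 8.54 at 1 d and 8.46, 8.35 and 8.43 after PBS. The arrays of both LPS groups lay above the PBS arrays and overlapped with each other. The log2 change was 0.16 at 1 d against PBS (95% interval -0.01 to 0.34, limma adjusted p = 0.363), 0.21 at 4 d against PBS (95% interval 0.04 to 0.39, limma adjusted p = 0.210) and 0.05 at 4 d against 1 d (95% interval -0.12 to 0.23, limma adjusted p = 0.838). None passed, and the F-test over the 3 groups gave an adjusted p of 0.289. The intervals leave room for a rise of up to 0.39 on the log2 scale.

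**Figure D2:**
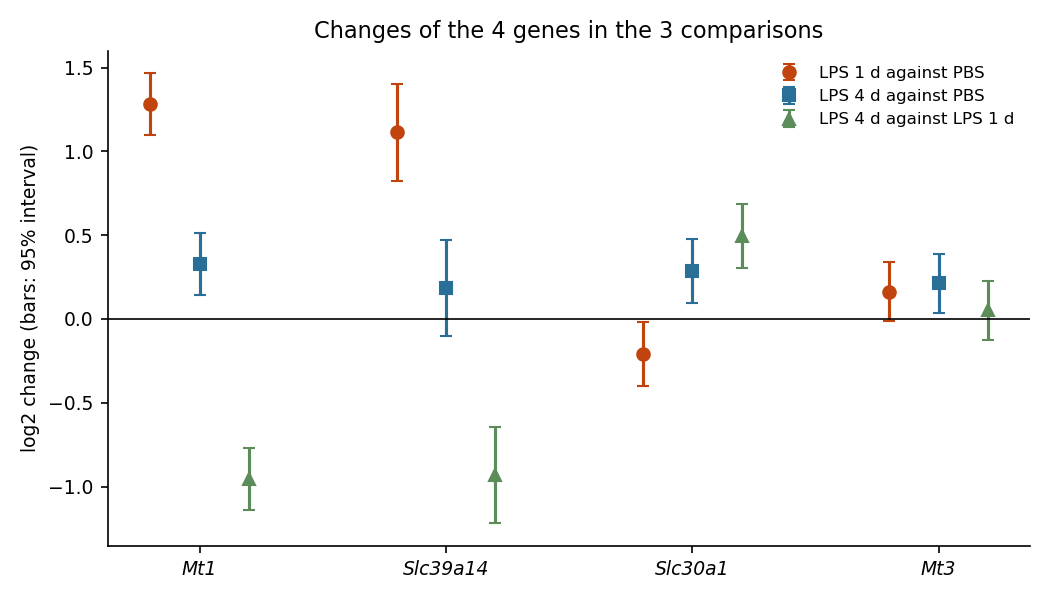
Log2 changes of *Mt1*, *Slc39a14*, *Slc30a1* and *Mt3* in the 3 comparisons, with 95% intervals from the linear model (n = 3 arrays a group). The intervals of *Mt1* and *Slc39a14* lie above 0 at 1 d against PBS and below 0 at 4 d against 1 d, and those of *Slc30a1* lie on the opposite side of 0 in both.

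To set the 2 metallothioneins against each other, the *Mt1* log2 value minus the *Mt3* log2 value was taken on each array. Only the change of this difference between groups has a meaning, since levels of different probe sets are not on 1 scale. It was 2.59 ± 0.03 at 4 d, 3.59 ± 0.04 at 1 d and 2.47 ± 0.09 after PBS (SD, n = 3 arrays each). The difference was thus 1.12 larger at 1 d than after PBS, 0.11 larger at 4 d than after PBS, and changed by -1.01 at 4 d against 1 d. A 2-sided exact permutation test gave p = 0.1 for each, the smallest that 3 arrays against 3 allow. Differences with *Mt2* were not analysed here.

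*Mt1* and *Mt3* lie in 1 gene cluster. In the RefSeq gene order of mouse chromosome 8 they stand with the other metallothionein genes in the order *Mt4*, *Mt3*, *Mt2* and *Mt1*, with 1 long non-coding RNA gene, *Gm39227*, between *Mt3* and *Mt2*. The promoters are shown because MTF1 acts through the metal response element, whose core is TGCACNC or TGCGCNC. Whether such cores bear on the changes reported above was not tested. The sequences are from RefSeq on the GRCm38.p6 build and run 5′ to 3′ on the strand of the gene, with 250 bases before and 50 bases after the annotated start. Capitals mark the cores found on either strand, and 3 of the 4 genes had an entry.
*Mt1* (chr8:94178839-94179138, plus strand): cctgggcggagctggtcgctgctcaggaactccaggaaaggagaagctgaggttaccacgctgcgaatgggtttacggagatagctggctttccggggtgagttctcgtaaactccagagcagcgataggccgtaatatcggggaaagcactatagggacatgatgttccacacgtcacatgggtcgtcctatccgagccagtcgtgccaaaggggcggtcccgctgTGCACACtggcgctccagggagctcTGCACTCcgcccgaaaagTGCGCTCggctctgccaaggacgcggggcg
*Mt3* (chr8:94152357-94152656, plus strand): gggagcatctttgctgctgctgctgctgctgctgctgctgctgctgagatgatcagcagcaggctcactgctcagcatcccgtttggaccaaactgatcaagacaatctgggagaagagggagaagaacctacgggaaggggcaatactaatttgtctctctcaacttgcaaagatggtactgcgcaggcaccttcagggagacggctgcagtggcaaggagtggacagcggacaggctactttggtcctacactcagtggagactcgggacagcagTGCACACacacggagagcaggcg
*Slc30a1* (chr1:191906531-191906830, plus strand): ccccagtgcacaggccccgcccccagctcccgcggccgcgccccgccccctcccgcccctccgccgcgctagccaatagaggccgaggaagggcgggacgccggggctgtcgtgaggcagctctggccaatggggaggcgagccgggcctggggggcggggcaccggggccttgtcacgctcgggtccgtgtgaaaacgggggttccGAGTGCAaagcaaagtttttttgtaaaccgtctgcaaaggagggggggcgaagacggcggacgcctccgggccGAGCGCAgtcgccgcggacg

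The *Mt1* promoter held 3 metal response element cores, all on the strand of the gene, with their first bases at -23, 3 and 21, where the annotated start counts as 1 and the base before it as -1. The *Mt3* promoter held 1, with its first base at 28. The *Slc30a1* promoter held 2, both on the opposite strand, beginning at -43 and 31. Of all 32851 promoters of this length, 25.7% held at least 1 such core on either strand and 1.97% held 3 or more. The STAT palindrome TTCNNNGAA, present in 8.3% of all promoters, the E-box CACGTG, present in 7.15%, and a glucocorticoid receptor palindrome of the half-sites AGAACA and TGTTCT separated by 3 bases, present in 0.00913%, had 0 matches in the 3 promoters. These are matches of letters in a short window around the annotated start and not measured binding sites. Where transcription starts in brain was not tested, and motifs outside the window were not searched. The cores did not overlap with matches of the other motifs.

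**Figure D3:**
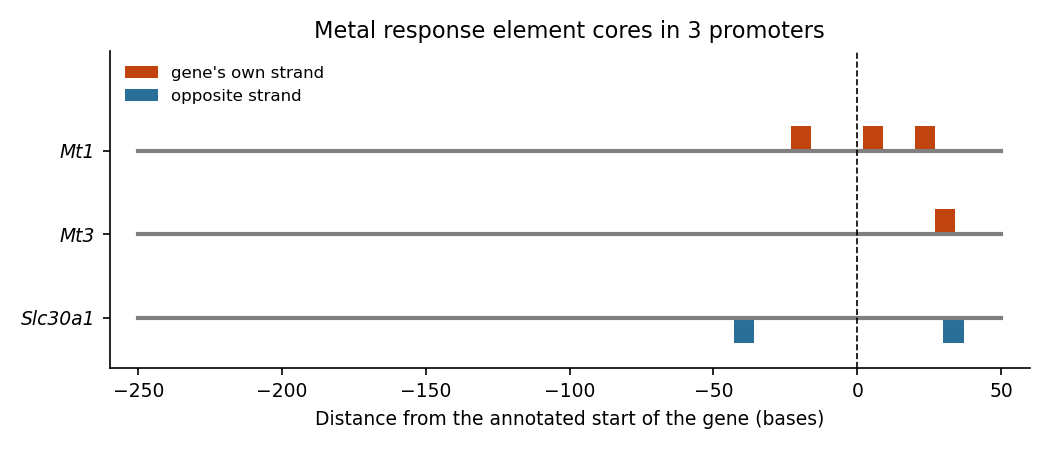
Metal response element cores in the promoters of *Mt1*, *Mt3* and *Slc30a1*, by distance in bases from the annotated start (dashed line), with boxes above the line for the strand of the gene and below it for the opposite strand. *Mt1* has 3, *Mt3* has 1 and *Slc30a1* has 2.

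Among the other zinc importers of the ZIP family, which carry zinc into the cytosol, 13 of 13 were measured. At 1 d against PBS 1 rose, 1 fell and 11 did not pass, with a median log2 change of -0.02. At 4 d against PBS 1 rose, 0 fell and 12 did not pass (median 0.04), and at 4 d against 1 d 1 rose and 0 fell. The 3 genes that passed anywhere were *Slc39a1*, *Slc39a12* and *Slc39a8*, and each had its own time course.

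*Slc39a1*, encoding the plasma membrane importer ZIP1, read 7.60, 7.34 and 7.67 at 4 d, 7.74, 7.74 and 7.93 at 1 d and 6.94, 6.92 and 7.03 after PBS. All 6 LPS arrays were above all 3 PBS arrays. It rose by 0.84 on the log2 scale at 1 d against PBS (95% interval 0.60 to 1.08, limma adjusted p = 0.00181). At 4 d against PBS the change of 0.57 had an adjusted p of 0.0176 from limma but was 1.49-fold, just under the fold change required.

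*Slc39a12*, encoding ZIP12, read 8.18, 7.94 and 8.19 at 4 d, 7.56, 7.45 and 7.62 at 1 d and 8.24, 8.19 and 8.36 after PBS. The LPS 1 d arrays were below the other 6. It fell by 0.72 on the log2 scale at 1 d against PBS (95% interval -0.94 to -0.50, limma adjusted p = 0.00265), and its change at 4 d against PBS was -0.16 (limma adjusted p = 0.455).

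*Slc39a8*, encoding ZIP8, the closest relative of ZIP14 and also a carrier of zinc, iron and manganese, read 6.07, 6.16 and 6.06 at 4 d, 5.08, 5.16 and 5.30 at 1 d and 5.18, 5.29 and 5.23 after PBS. It was high on the LPS 4 d arrays alone, and the other 2 groups overlapped. It rose by 0.86 at 4 d against PBS (95% interval 0.68 to 1.05, limma adjusted p = 0.000443) and by 0.91 at 4 d against 1 d (95% interval 0.72 to 1.10, limma adjusted p = 0.000756), on the log2 scale, and its change at 1 d against PBS was -0.05 (limma adjusted p = 0.833). When either LPS 4 d replicate 2 or PBS replicate 3 was left out, 2 ZIP genes in place of 1 passed at 4 d against PBS. At 4 d against 1 d, 2 in place of 1 passed when either LPS 1 d replicate 3 or LPS 4 d replicate 2 was left out.

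Of the other zinc exporters of the ZnT family, which move zinc out of the cytosol, 9 of 9 were measured and 0 passed in any of the 3 comparisons. The 2 with the highest mean values were *Slc30a9*, with log2 means of 9.18 at 4 d, 9.07 at 1 d and 9.15 after PBS, and *Slc30a4*, with 8.76 at 4 d, 8.91 at 1 d and 8.90 after PBS. The 95% interval of the *Slc30a9* change at 1 d against PBS ran from -0.25 to 0.09 on the log2 scale. *Slc30a2* and *Slc30a8* were at or below background in all groups, and these 2 are named because of their levels.

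Of 4 genes listed for zinc sensing and storage, 3 were measured and 0 passed. *Mtf1*, the zinc-sensing transcription factor that acts on metallothionein promoters, had log2 means of 5.13 at 4 d, 4.92 at 1 d and 5.02 after PBS, and its change at 1 d against PBS had a 95% interval of -0.54 to 0.34. *Tmem163*, encoding a zinc-binding protein of synaptic vesicles, had log2 means of 6.51 at 4 d, 6.41 at 1 d and 6.76 after PBS. *Mt4*, the metallothionein of stratified epithelium and the third gene measured, was at or below background in every group.

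**Figure D4:**
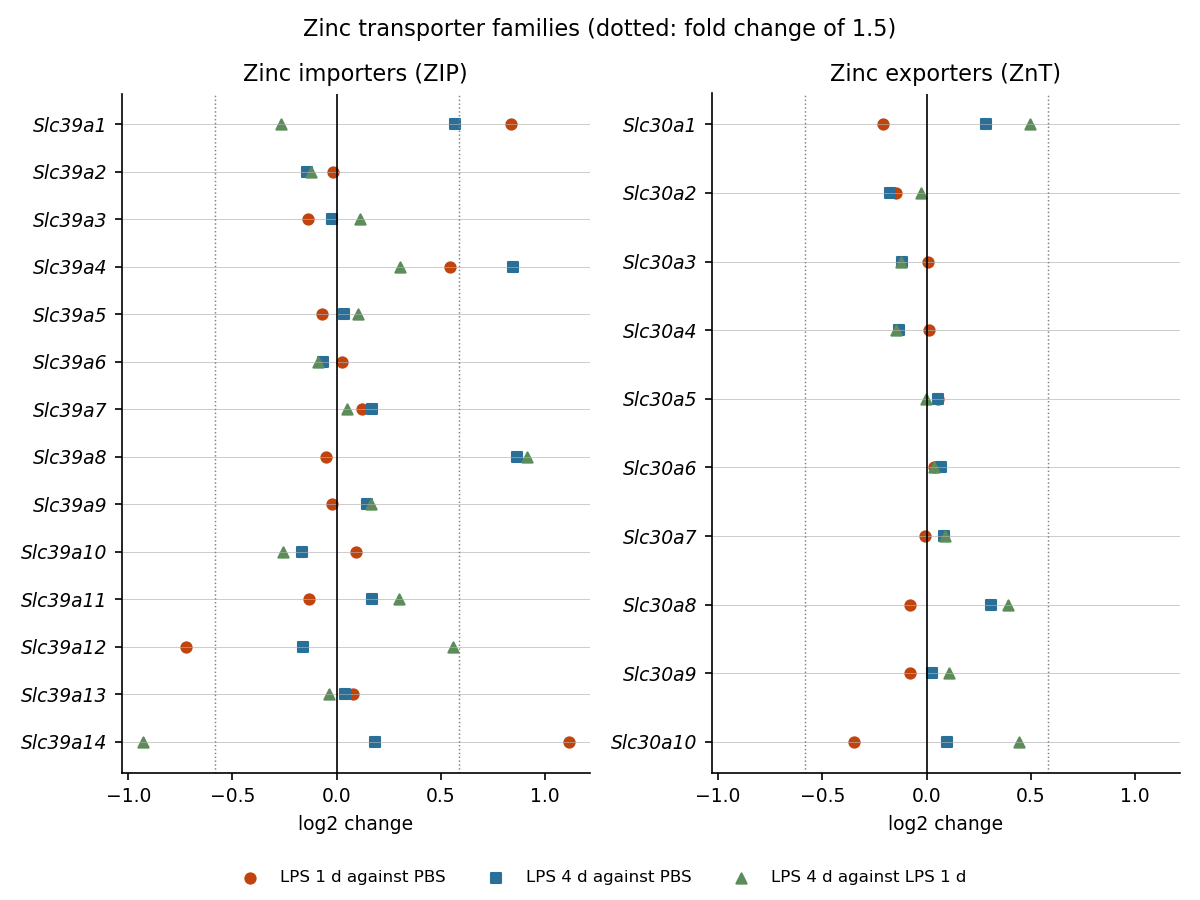
Log2 changes of the zinc importers (left) and zinc exporters (right), *Slc39a14* and *Slc30a1* included, in the 3 comparisons. Dotted lines mark a fold change of 1.5, past which *Slc39a14*, *Slc39a1* and *Slc39a12* stand at 1 d against PBS and *Slc39a8* at 4 d against PBS. *Slc39a4*, at 0.85 at 4 d against PBS, did not pass (limma adjusted p = 0.154) and was at or below background after PBS.

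Genes of the IL-6 and STAT3 axis are known to act upstream of *Mt1* and *Slc39a14* in liver. Of 12 measured, 8 rose at 1 d against PBS and 4 did not pass (median log2 change 1.27), 6 rose at 4 d against PBS (median 0.40), and 7 fell at 4 d against 1 d (median -0.86). *Il6*, the cytokine itself, rose by 3.42 on the log2 scale at 1 d against PBS (limma adjusted p = 5.70e-05). It had log2 means of 1.72 at 4 d, 5.20 at 1 d and 1.78 after PBS, so it was at or below background at 4 d and after PBS.

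*Socs3*, the feedback inhibitor that STAT3 induces, had log2 means of 5.64 at 4 d, 7.51 at 1 d and 3.60 after PBS, a rise of 3.91 at 1 d and of 2.04 at 4 d against PBS (limma adjusted p = 8.03e-06 and 0.000325). *Cebpd*, an acute-phase transcription factor, rose by 3.61 at 1 d and 2.44 at 4 d against PBS, and *Osmr*, the oncostatin M receptor, rose by 3.06 and 1.97 at the same times, all as log2 changes. *Il6ra*, the IL-6 receptor, rose by 1.11 at 4 d against PBS. The largest falls in the list at 4 d against 1 d were those of *Il6* (-3.48), *Socs3* (-1.87), *Cebpd* (-1.17) and *Cebpb* (-1.10). When replicate 2 or 3 at 1 d, or replicate 3 at 4 d, was left out, 4 genes of the axis in place of 7 passed at 4 d against 1 d.

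Of 11 glucocorticoid-responsive genes, all measured, 5 rose at 1 d against PBS, 0 passed at 4 d against PBS and 3 fell at 4 d against 1 d, with median log2 changes of 0.41, 0.03 and -0.38. *Fkbp5*, a glucocorticoid receptor co-chaperone, had log2 means of 6.89 at 4 d, 7.87 at 1 d and 6.74 after PBS and rose by 1.12 at 1 d (limma adjusted p = 0.00414). *Sgk1*, a kinase gene, rose by 0.87, *Hif3a* by 0.77 and *Zbtb16* by 0.61 at 1 d, and *Fkbp5* (-0.97), *Hif3a* (-0.94) and *Sgk1* (-0.82) were the genes that fell at 4 d against 1 d, all on the log2 scale. The 6 that did not pass at 1 d were *Ddit4* (0.41), *Per1* (0.14), *Klf9* (0.11), *Tsc22d3* (0.02), *Pdk4* (-0.03) and *Nr3c1* (-0.20). Without LPS 1 d replicate 2, 3 genes of the list passed at 1 d, and without PBS replicate 3, 2 passed.

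Of 9 targets of the oxidative stress factor NRF2, all measured, 3 rose at 1 d against PBS (median 0.42), and 0 passed at 4 d against PBS or at 4 d against 1 d. They were *Osgin1* (0.96), *Gsr* (0.70), which encodes glutathione reductase, and *Slc7a11* (0.68), the cystine carrier, on the log2 scale. The 6 that did not pass at 1 d were *Hmox1* (0.55), *Txnrd1* (0.42), *Nqo1* (0.09), *Gclc* (0.05), *Gclm* (0.04) and *Srxn1* (0.03). When LPS 1 d replicate 2 or 3, or PBS replicate 1 or 2, was left out, 1 passed at 1 d, and 1 passed at 4 d against PBS without LPS 4 d replicate 2.

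Of 9 copper handling genes, all measured, 2 rose at both times against PBS. *Cp*, encoding the copper carrier ceruloplasmin, had log2 means of 8.14 at 4 d, 8.57 at 1 d and 4.82 after PBS, rises of 3.75 at 1 d and 3.32 at 4 d against PBS (limma adjusted p = 1.74e-05 and 4.12e-05). *Slc31a2*, a copper transporter, rose by 0.96 at 1 d and 1.11 at 4 d as log2 changes, and at 4 d against 1 d 0 genes of this list passed. Without PBS replicate 2, 1 passed at 1 d.

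**Figure D5:**
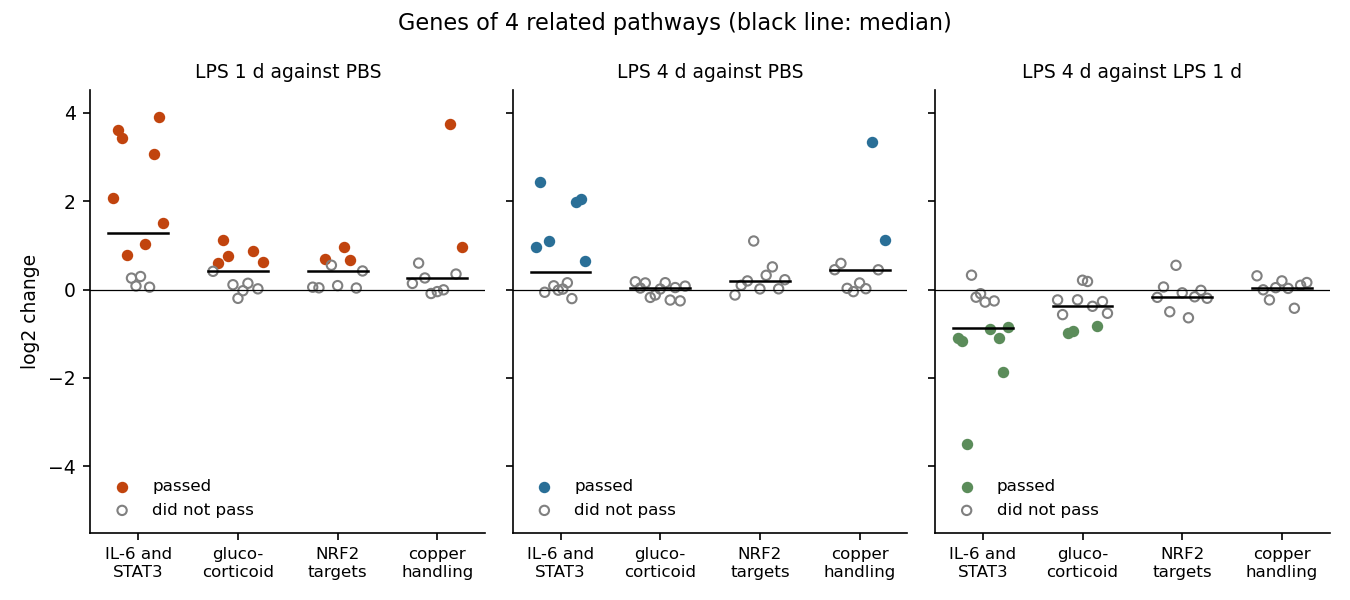
Log2 changes of the genes of 4 lists in the 3 comparisons (panels). Filled points passed the test, open points did not, and black lines are medians. The IL-6 and STAT3 genes have the highest median of the 4 lists at 1 d against PBS (1.27), and 2 copper handling genes, *Cp* and *Slc31a2*, stand above the rest of their list at both times.

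The genes whose values ran most like those of each of the 4 were searched among 12064 genes above background in at least 1 group, by Pearson's r over the 9 arrays. These 9 points fall into 3 groups, so r mainly follows the 3 group means, and it is given as a description. *Mt1* was most like *C1rb* (0.993), a complement gene, *Sdc4* (0.991), encoding the heparan sulfate proteoglycan syndecan 4, and *Ptx3* (0.990), encoding pentraxin 3. *C1rb* was above background at 1 d alone, so it entered the search through the group where it was high, and *Ptx3* was below background after PBS. *Slc39a14* was most like *Hspb1* (0.988), a small heat shock protein gene, *Ccr1* (0.987), a chemokine receptor gene, and *Slfn3* (0.987), of which *Ccr1* and *Slfn3* were above background at 1 d alone and entered the search through that group. *Slc30a1* was most like the histone genes *H3c1* (0.972) and *H1f2* (0.964) and *Skil* (0.969), a corepressor of SMAD proteins. For *Mt3*, *Tfe3* (0.948), *6330407A03Rik* (0.939) and *Rpl19* (0.937) came first, and *6330407A03Rik* was above background at 4 d alone. Among the 4 genes themselves, r was 0.960 for *Mt1* with *Slc39a14*, -0.610 for *Mt1* with *Slc30a1*, -0.670 for *Slc39a14* with *Slc30a1* and 0.473 for *Mt1* with *Mt3*.

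Marker genes of several cell types changed between the same groups, and their part in the results above was not tested. Of 12 astrocyte markers 11 were measured, and their summed linear intensity was 7389 to 8089 at 4 d, 7126 to 7195 at 1 d and 6475 to 6857 after PBS. *Gfap* and *Aqp4* rose at both times against PBS, by 2.83 and 0.65 on the log2 scale at 1 d, and the other 9 did not pass against PBS. *Gja1*, encoding an astrocyte gap junction protein, rose by 0.76 at 4 d against 1 d. None of the 11 was at background. For 8 of 9 neutrophil markers measured, the sum was 278 to 477 at 4 d, 1550 to 4236 at 1 d and 87.6 to 169 after PBS. At 1 d against PBS 5 rose, led by *S100a9* (5.87) and *S100a8* (5.59), and *Ngp* (0.19), *Ltf* (-0.08) and *Camp* (0.07) did not pass. *S100a9* and *S100a8* had the highest log2 means of the list at 1 d (10.3 and 10.09), so the linear sum at 1 d mainly follows them. Of the 8, 4 were at or below background at 4 d, 1 at 1 d and 3 after PBS, and *Camp*, which encodes a neutrophil granule peptide, was so in all groups. The neutrophil sum, like *Mt1* and *Slc39a14*, was highest at 1 d, and the astrocyte sum was highest at 4 d. Single astrocyte markers differed from their sum. *Gfap*, *Aldh1l1* and *Sox9* had their highest means at 1 d, and *Aldoc* and *Acsbg1* had theirs after PBS. The other astrocyte markers, among them the bright *Gja1*, had their highest means at 4 d.

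For the 9 measured of 11 microglial markers the sum was 1875 to 2136 at 4 d, 588 to 845 at 1 d and 874 to 919 after PBS. This sum had the order of groups of *Slc30a1*, but of its members only *Tmem119* and *Fcrls* did, by their means. *P2ry12*, *P2ry13* and *Gpr34* had their highest means after PBS, and *Cx3cr1*, *Csf1r*, *Olfml3* and *Sall1* had their lowest there. At 1 d against PBS 3 of the 9 markers fell, *P2ry12* (-2.14), *P2ry13* (-0.83) and *Gpr34*. The last was at or below background at 1 d, so that the size of its fall was not measured. Between the 2 times, 8 rose at 4 d against 1 d. For the 8 monocyte and macrophage markers, all measured, the sum was 1649 to 2382 at 4 d, 1031 to 1037 at 1 d and 138.7 to 159.5 after PBS. This sum and *Slc39a8* were both highest at 4 d, but unlike *Slc39a8* the sum was already above PBS at 1 d. The microglial, endothelial and astrocyte sums were also highest at 4 d. The monocyte and macrophage markers did not move together. At 1 d against PBS 5 rose and 1 fell, at 4 d against PBS 6 rose, and at 4 d against 1 d 3 rose, *Ms4a7* (4.36), *Mrc1* (1.77) and *Lyz2* (1.47), and 2 fell, *Chil3* (-3.09) and *Plac8* (-2.37). In this list, 1 of the 8 at 4 d, 2 at 1 d and 5 after PBS were at or below background, with *Cd163* so in all groups.

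Of 8 oligodendrocyte markers 7 were measured, with a sum of 5264 to 5993 at 4 d, 5109 to 5395 at 1 d and 5918 to 6034 after PBS. At 1 d against PBS *Opalin* (-1.15), *Aspa* (-0.85) and *Cnp* (-0.63) fell, and the same 3 genes rose at 4 d against 1 d, by 1.14, 0.74 and 0.78. *Slc30a1* and *Slc39a12* likewise had their lowest values at 1 d. This was not particular to oligodendrocyte markers. The astrocyte marker *Gja1* and the endothelial markers *Slco1a4*, *Abcb1a* and *Tek*, among others, also had their lowest means at 1 d, though not all markers of those lists did. The oligodendrocyte list was not uniform, and its sums at 1 d and 4 d overlapped. *Mbp* and *Mog* also had their lowest means at 1 d, without passing, whereas *Mag* and *Mobp* had their highest means there. For the 9 endothelial markers, all measured, the sum was 1479 to 1719 at 4 d, 1150 to 1215 at 1 d and 1098 to 1116 after PBS, and 0 passed at 1 d against PBS, 2 rose at 4 d against PBS and 4 rose at 4 d against 1 d. For the 8 choroid plexus markers, all measured, the sum was 1557 to 3045 at 4 d, 3581 to 4971 at 1 d and 3223 to 4472 after PBS. Their median log2 change was -0.71 at 4 d against PBS, where 1 of the 8 fell, and -0.74 at 4 d against 1 d, where 2 fell. No marker of these 3 lists was at or below background in any group.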

How the data were processed

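The authors labelled total RNA, hybridised it to Affymetrix HT MG-430 PM arrays and used RMA, in Affymetrix Expression Console, on the scans. The deposited values are background-corrected, normalized log2 intensities per probe set. The software version was not stated in the labels or methods, and batches of arrays were not analysed here. After 104 control entries were left out, all 45037 probe sets were tested. Of these, 28898 had 1 symbol, 551 several and 15588 none, and 28689 symbols were matched to the RefSeq gene table. Array medians lay between 4.32 and 4.37, and 3 arrays a group limit the precision.

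The 9 arrays were fitted together, with 1 mean per group, by limma 3.58.1 in R 4.3.3 (6 residual and 3.02 prior degrees of freedom), with p-values adjusted by Benjamini-Hochberg over all probe sets. The procedure was tested on simulated data. The p-values thus rest on the spread between RNA pools. Linear intensities are 2 to the power of the log2 values.

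The genes followed, the lists and the markers were chosen with earlier results of these data known. The genes named were the 5 chosen genes; the ZIP, ZnT and zinc sensing genes that passed, or else the 2 with the highest means; up to 4 genes with the largest passing change per other list and comparison; and the 3 genes most correlated with each of the 4 analysed. Other genes are named for their level, as defining markers or as counts of few. Alternatives were an intensity trend with robust hyperparameters, ordinary tests, a replicate block, array weights, a background filter, median centring, only the 6 arrays compared, a fold change of at least 2, other probe sets and each array left out. Figures were drawn with matplotlib 3.10.9.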

Additional observations from a re-analysis of the deposited data

Results flagged for a closer look

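The change from PBS was compared between the 2 times after LPS by the direct limma test of 4 d against 1 d. In it 3 genes had an adjusted p under 0.05, and 2 of them, *Mt1* and *Slc39a14*, also passed the fold change of 1.5. With both conditions, 1.84% of all genes were higher and 1.37% lower. The share of all genes with an adjusted p under 0.05 alone was not counted for this comparison, so the 3 genes have no share beside them. For *Mt1* the difference was -0.95 on the log2 scale (adjusted p = 0.000528), with all 3 LPS 4 d arrays below all 3 LPS 1 d arrays. For *Slc39a14* it was -0.93 (adjusted p = 0.00543), again with no overlap. For *Slc30a1* it was 0.50 (adjusted p = 0.0161), with all 3 LPS 4 d arrays above all 3 LPS 1 d arrays. It was 1.41-fold and did not pass, and its adjusted p was above 0.05 when any of 4 single arrays was left out (0.0512 to 0.0728), with the replicate block (0.0502) and with only the 6 arrays compared (0.0574).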

How the results depend on the processing

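All 192 values of the log2 changes of *Mt1*, *Mt3*, *Slc39a14* and *Slc30a1* kept their direction and their side of the 1.5-fold threshold. The 192 leave out other probe sets and the stricter fold requirement, both given below. Alternatives that altered only the test could not move a log2 change, so those values were fixed beforehand. Changes under 1.5-fold could not pass whatever their adjusted p. The limma adjusted p did cross 0.05 at 4 d against PBS with the intensity trend. It went from 0.0639 to 0.00053 for *Mt1*, 0.116 to 0.0176 for *Slc30a1* and 0.21 to 0.0445 for *Mt3*. For *Slc39a14* it stayed above (0.413). With 1 array left out at a time, *Mt1* changed by 1.25 to 1.32 at 1 d against PBS and by -0.99 to -0.90 at 4 d against 1 d, and *Slc39a14* by 1.01 to 1.24 and -1.05 to -0.82. Another probe set gave 0.66 at 1 d against PBS, -0.026 at 4 d against PBS, a reversed direction, and -0.69 at 4 d against 1 d for *Mt1*. For *Slc39a14* the second probe set gave 0.52 at 1 d against PBS and -0.24 at 4 d against 1 d, and the third gave 0.77 at 1 d against PBS and -0.16 at 4 d against PBS, reversed, with the causes not tested. At a fold change of at least 2, 0 genes in place of 2 passed at 4 d against 1 d, since a larger change was required. With the replicate block the *Slc30a1* change at 4 d against 1 d had an adjusted p of 0.0502, and with only the 6 arrays compared it was 0.0574. The block left 2, 0 and 2 of the 4 genes passing at 1 d against PBS, 4 d against PBS and 4 d against 1 d and changed no call. Same-numbered arrays deviated from their group means with r between -0.0346 and 0.0216, and differently numbered arrays with r between -0.0339 and 0.0445. Values this small cannot settle whether arrays of 1 number were handled together. Over all probe sets, the counts at 1 d against PBS, 4 d against PBS and 4 d against 1 d were 1262, 1318 and 883, and at a fold change of at least 2 they were 761, 738 and 476. Without moderation, 832 passed at 4 d against PBS and 419 at 4 d against 1 d. Without LPS 1 d replicate 2, 587 passed at 4 d against 1 d. Of 231 counts of the other gene lists, 216 were within 1.5 times of those reported. The dim probe sets, near the background of 3.49, give little information on small changes.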
